A study of Cucumis sativus with 33 samples.

Results

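The step from green yellow bud to yellow bud was followed in corollas of female cucumber flowers (Cucumis sativus) that sat on normal ovaries. It was read as N4 against N3, where N3 stands for corollas 3 days after the ovary had been labeled and N4 for corollas 4 days after. Members were chosen by their labels alone and comprise 6 of the 33 RNA-seq libraries, 3 per group, each made from 5 corollas ground and mixed. Both groups came from greenhouse plants of inbred line 6457, a parthenocarpic line, and the flowers were bagged to keep pollen out. Both also came from plants short of fertilizer and water that carried fruit elsewhere on the stem, which is how normal ovaries were obtained. Other groups read beside them were normal corollas on day 1 (N1, green bud) and day 5 (N5, open flower). Super ovary corollas came from plants with ample fertilizer and water that carried 1 fruit near the growing point. Their green bud was taken on day 1 (S1), the green yellow bud on day 3 (S3), day 4 (S4) and day 5 (S5), the yellow bud on day 7 (S7) and day 8 (S8), and the open flower on day 9 (S9). Normal flowers opened on day 4 or 5, mostly on day 5, so a pool taken on day 4 lies close to opening. A pool of 5 corollas mixes petal tissues, and more cells of a type and more RNA per cell cannot be told apart in it.

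The corolla is the whorl of petals. While a petal of this kind turns from green to yellow, its chloroplasts are known to lose chlorophyll and to become chromoplasts that store carotenoids. Opening itself is driven largely by cell expansion, for which cells take up water and loosen their walls. In cucumber the corolla sits above an inferior ovary, and bud and ovary develop together.

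Values were RPM, the reads of a gene scaled to a library total of 1000000, with no correction for gene length. The 6 libraries held between 18052549 and 22615868 reads, as recovered from the steps between their values. Replicates correlated across genes at 0.9942 to 0.9965 in N3 and at 0.9939 to 0.9958 in N4, on log2(RPM + 1). S7 replicate 3 stood apart, as it correlated at 0.965 and 0.977 with the other S7 libraries, where replicate pairs without it correlated at 0.9891 or more in the 11 groups. The identifiers are not paired with gene names or functions in the sources used here. Petal identity, pigment genes and wall genes could therefore not be checked, and genes are described by their levels and courses.

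One day separated N3 from N4, and 1122 genes rose while 3585 fell. These are 5.93% and 19.0% of the 18905 genes tested, 24.9% together. A gene was called by limma at a Benjamini-Hochberg adjusted p under 0.05 with a change of at least 2-fold on the log2(RPM + 1) scale. On that scale the change of a gene with few reads is understated. Falling genes were more numerous among small changes and rising genes among large ones. At 4-fold or more, 339 genes rose and 640 fell. At 8-fold or more the numbers were 128 and 159, and at 16-fold or more 56 rose and 32 fell. The libraries of N3 and N4 did not overlap in 4700 of the 4707 called genes, against 78.3% of all genes tested (22.6% higher and 55.7% lower in N4).

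At the 2-fold limit falls outnumbered rises in each version given here, by a margin that changed with the processing. As deposited, the median log2 change of the tested genes was -0.31. With libraries scaled to equal median gene ratios, which is called rescaling from here on, 1888 genes rose (9.99%) and 2135 fell (11.3%). Rises then made up 46.9% of the calls in place of 23.8%. With edgeR on recovered reads 2226 rose and 3232 fell (40.8% rises), and with DESeq2 2277 rose and 3191 fell (41.6% rises). The 1122 rising genes were called in the same direction after rescaling, as were 2135 of the 3585 falling genes, and no gene changed direction. Rescaling divided N4 libraries by 0.735 to 0.7745 and N3 libraries by 0.9796 to 1.008, which moved changes upward. That the rises were kept and no fall became a rise follows largely from this shift and is no further test. Among larger changes rises were ahead after rescaling, with 511 up and 419 down at 4-fold or more and 174 up and 100 down at 8-fold or more.

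**Figure D1:**
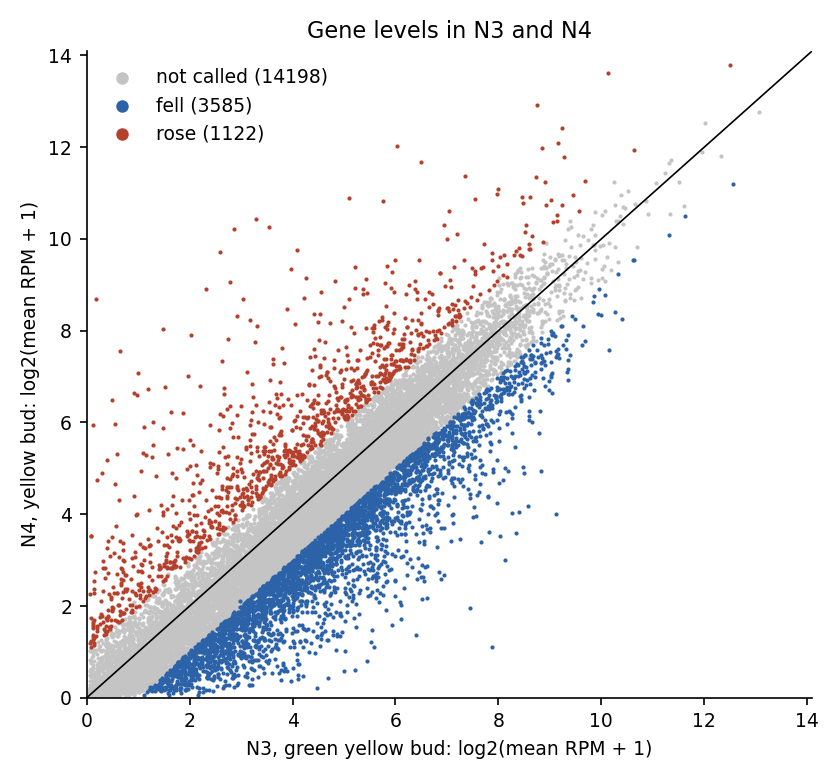
Mean level of each of the 18905 tested genes in N4 (vertical axis) against N3 (horizontal axis), both as log2(mean RPM + 1), with 1 point per gene and the line of equal levels. The 3585 genes that fell form a dense band under the line, and the 1122 that rose are scattered farther above it.

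Reads became concentrated in fewer genes at the yellow bud. The 10 genes with the most reads held 4.59%, 4.55% and 4.53% of the RPM in the N3 libraries and 7.19%, 6.97% and 6.64% in the N4 libraries. The top 100 held 14.4% ± 0.192 (SD, n = 3) in N3 and 21.3% ± 0.655 in N4, and the top 1000 held 43% ± 0.496 and 51.2% ± 0.743. All N4 libraries lay above all N3 libraries in each of these shares, and also above the 27 libraries of the other groups, where the top 100 held 11.4% to 16.8%. As few as 938 ± 39.3 genes held 50% of the RPM in N4, against 1417 ± 34.5 in N3. Genes at 10 RPM or more numbered 12097, 12120 and 11960 in N3 and 10602, 10615 and 10833 in N4. Each of these differences gave p = 0.1 by a two-sided exact permutation test, the smallest that 3 against 3 libraries allow.

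**Figure D2:**
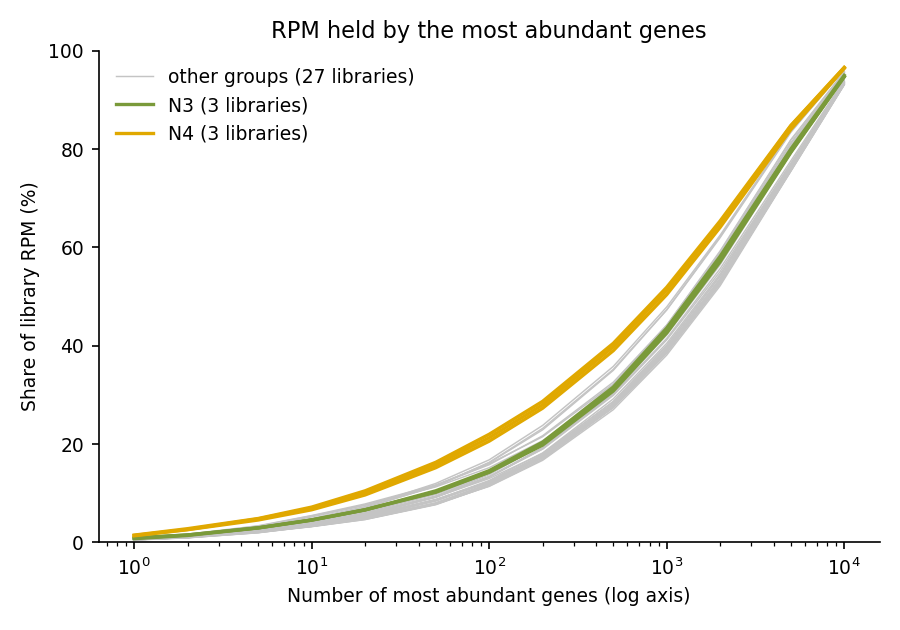
Share of a library's RPM held by its most abundant genes (vertical axis, percent) against the number of genes counted (horizontal log axis), 1 line per library. The N4 lines lie above those of N3 and of the other 27 libraries, at 21.3% against 14.4% for the top 100 genes.

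Since every library sums to the same RPM total, gains and losses balance. From N3 to N4, 26.4% of the RPM moved to genes with a higher mean. The called rising genes took 68.1% of this gain, and the 10 genes that gained most took 19.7%. Losses were spread more widely, with 5.83% of them in the 10 genes that lost most. Genes that rose held 5.61%, 5.27% and 5.72% of the RPM in the N3 libraries and 24.6%, 23.2% and 22.8% in those of N4. Genes that fell went from 23.1%, 23.2% and 22.4% to 7.43%, 7.41% and 7.91%. These shares describe the called genes and are no further test of them.

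Of the 10 genes with the most reads in N4, 8 were called higher than in N3 and 3 had been among the top 10 of N3. Ranks are by reads, so longer genes rank higher at an equal number of transcripts. The gene with the most reads in N4 stood at 14873, 14304 and 13492 RPM there and at 5296, 5534 and 6563 RPM in N3. Its change was 1.30 on the log2 scale (SE 0.23, adjusted p 1.4e-05 by limma), and it was at 602 ± 64.6 RPM in N5. The second went from 1119 ± 86.1 RPM in N3, where it ranked 41st, to 12535 ± 582 in N4. The eighth had the largest change of the 10. It ranked 3847th in N3 at 61.3, 64.6 and 65.2 RPM and reached 4689, 4120 and 3763 RPM in N4, a change of 6.01 (SE 0.26, adjusted p 5.8e-17). It was at 19.1 ± 1.62 RPM once the flower was open. The gene that had led N3 was not called, at 8567 ± 777 RPM there and 6971 ± 1225 in N4.

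By the rule for named genes, Csa5G605130 had the largest rise. It was listed at 0.15, 0.13 and 0.11 RPM in the N3 libraries and at 475, 383 and 372 RPM in N4. The N3 values correspond to 1 or 2 reads per library and are near the lowest listed value, so the gene passed from barely detected to well expressed in a day. Its log2 change was 8.50 (SE 0.21, adjusted p 8.5e-22 by limma). From summed reads, 23741 in N4 against 5 in N3, the ratio was 4947 with an exact 95% interval of 2120 to 15238, which covers counting error only. It had been at 0.21 ± 0.02 RPM in N1 and came down to 11.1 ± 4.38 RPM in N5. In super ovaries it lay between 0.04 and 0.27 RPM in each library of S1 to S7, and then reached 209 ± 34.7 RPM in S8 and 107 ± 43.4 in S9.

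Csa3G115050 was next. Its N3 libraries held 5.78, 7.21 and 5.76 RPM and its N4 libraries 1380, 1057 and 1130 (log2 change 7.36, SE 0.17, adjusted p 1.6e-22 by limma). Among normal groups the gene was high in N4 alone. It stood at 7.82 ± 0.287 RPM in N1 and 5.41 ± 0.94 in N5, and N5 against N1 was not called (log2 change -0.47, SE 0.17, adjusted p 0.013). In super ovaries it stayed between 7.38 and 13.3 RPM up to S7, rose to 836 ± 148 in S8 and was at 39.4 ± 16.3 in S9.

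The steepest fall by that rule was in Csa2G340400. It stood at 210, 229 and 259 RPM in N3 and at 1.24, 0.91 and 1.27 RPM in N4, a log2 change of -6.77 (SE 0.12, adjusted p 7.5e-25). By summed reads N3 was higher by a factor of 214, with an exact 95% interval of 167 to 278. Its level in N1, 232 ± 30.7 RPM, was close to that in N3, and in N5 it remained at 1.61 ± 0.131. The super course showed this shut-off over 2 sampled steps, from 309 ± 30.4 RPM in S5 to 84.9 ± 14.5 in S7 and 1.72 ± 0.32 in S8.

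Csa5G366670, the next, followed another course. Its N3 libraries held 187, 183 and 151 RPM and those of N4 3.02, 1.91 and 3.65 (log2 change -5.52, SE 0.46, adjusted p 3.8e-11). It then stood at 407 ± 57.8 RPM in N5, so that N4 was a dip between higher days. Its N1 level had been 68.5 ± 9.56 RPM, and N3 against N1 was called as a rise (log2 change 1.33, SE 0.46, adjusted p 0.013 by limma). In super ovaries it was at 92 ± 50.3 RPM in S1, 39.2 ± 16 in S3, 20.1 ± 13.2 in S4 and 23.7 ± 10.9 in S5. The super means thus went down before they rose, with no rise from day 1 to day 3 like that in normal corollas. Libraries of consecutive super groups overlapped from S1 to S7. By limma neither S3 against S1 (adjusted p 0.069) nor S5 against S3 (adjusted p 0.24) was called. From S7 on the gene was at 89.6 ± 53.3 RPM, then 181 ± 41.2 in S8 and 276 ± 12.1 in S9. Within S7 it ranged from 29.8 RPM in replicate 3 to 132. After rescaling the 4 named genes changed by 8.91, 7.75, -6.55 and -5.22, in the order given here.

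**Figure D3:**
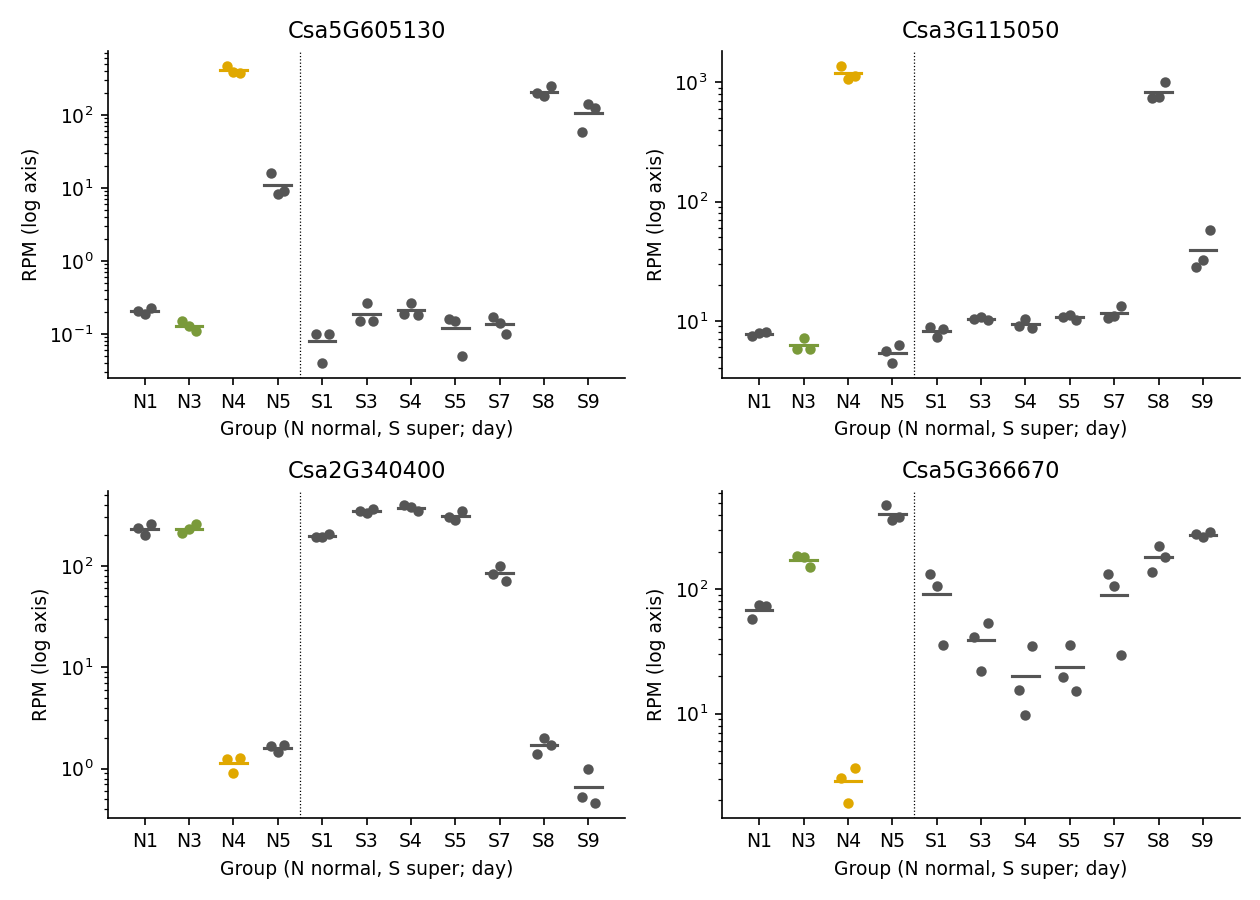
RPM of the 4 named genes (vertical log axes) in each library of the 11 groups, with 1 point per library and a bar at the group mean. The 2 upper genes are high in N4 and in S8 but not in S7, Csa2G340400 is low from N4 and from S8 on, and Csa5G366670 is lowest in N4.

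The called genes were next followed through the remaining groups. Rising genes had a median level of 9.94 RPM in N1, 12.5 in N3, 51.3 in N4 and 27.1 in N5. They held 3.23% ± 0.0411 of the RPM in N1 and 9.78% ± 0.0538 in N5, against 23.5% ± 0.971 in N4. Falling genes had medians of 31.5 RPM in N1, 22.8 in N3, 6.63 in N4 and 14.4 in N5. As the sets were chosen on N3 and N4, their extremes in those groups follow from the choice. In super ovaries the share of the rising genes was 4.99% ± 0.324 in S5, 8.72% ± 0.455 in S7, 17.6% ± 0.81 in S8 and 11.3% ± 0.411 in S9. That of the falling genes was 20.5% ± 0.278, 17.2% ± 0.294, 12.2% ± 0.926 and 17.2% ± 0.552 in the same groups. The contrast that chose them holds no super library, and both sets had their extreme in S8.

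**Figure D4:**
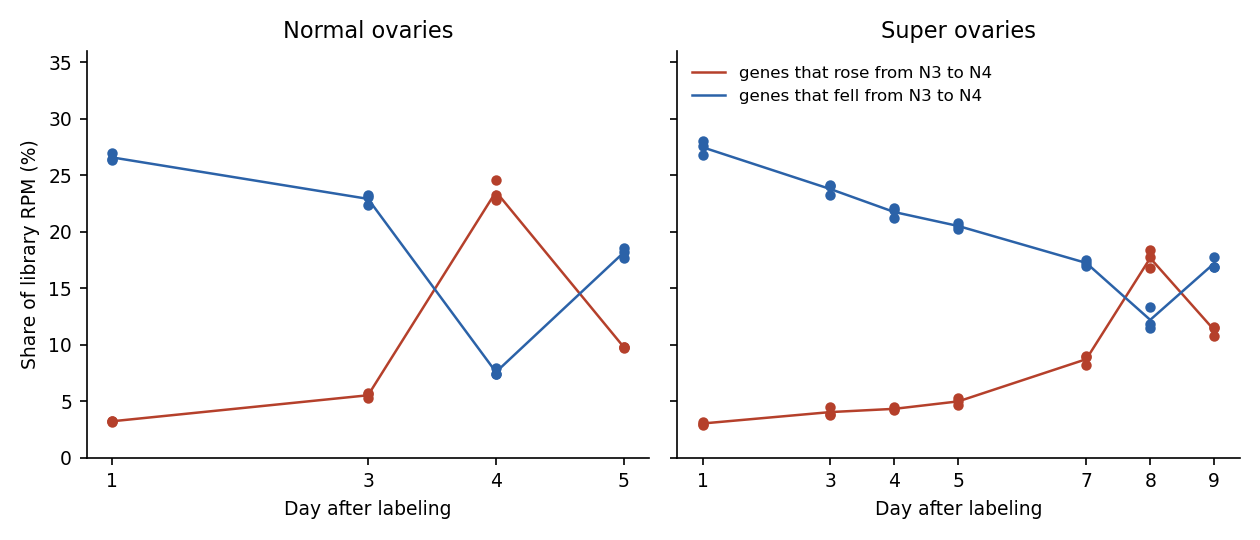
Share of library RPM (vertical axis, percent) held by the 1122 genes that rose and the 3585 that fell from N3 to N4, by day after labeling, in normal (left) and super ovaries (right), with 1 point per library and lines through group means. The rising genes reach 23.5% on day 4 in normal ovaries and 17.6% on day 8 in super ovaries.

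Whether these genes also differed between the ends of the normal course was read from N5 against N1, which shares no library with N4 against N3. This contrast and the super contrasts below come from the same fit and share its spread per gene, so they are not fully independent of it. Of the 1122 rising genes, 579 (51.6%) were higher and 76 lower in the open flower than in the green bud, where 15.0% of all tested genes were higher and 26.4% lower. Their median log2 change was 1.06, against -0.30 for all genes tested. Of the 3585 falling genes, 1956 (54.6%) were lower and 610 (17.0%) higher in N5 than in N1, with a median of -1.16. Large rises and large falls behaved differently. Among genes that rose 8-fold or more, 96 of 128 were higher in N5 than in N1. Among those that fell 8-fold or more, 42 of 159 were lower (26.4%, the share of all genes tested) and 74 (46.5%) were higher. The median levels of these 159 genes were 27.6 RPM in N1, 54.5 in N3, 3.69 in N4 and 33.3 in N5. After rescaling, 23 of 100 such genes were lower and 52 higher in N5 than in N1, where 19.0% and 19.9% of all genes were.

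The super course showed at which days the rising genes went up there. From S1 to S3, 69 of the 1122 rose and 29 fell, where 2.11% and 2.51% of all tested genes did so, and from S3 to S5, 138 rose and 9 fell (2.45% and 2.03% of all). The step into the first yellow bud, S5 to S7, raised 232 of them and lowered 19, against 3.25% and 8.64% of all genes. From S7 to S8, within the yellow bud stage, 446 rose and 21 fell, against 5.58% and 9.13% of all. From S8 to S9 the balance turned, with 105 up and 342 down, against 9.28% and 6.30% of all. Without S7 replicate 3, 256 rose and 39 fell from S5 to S7, where 4.46% of all genes rose and 12.4% fell, and 445 from S7 to S8, where 4.88% rose and 7.21% fell. Over the whole super course, S9 against S1, 641 of the 1122 were higher (57.1%) and 81 lower, against 16.8% and 30.3% of all.

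From the last green yellow bud to the later yellow bud of super ovaries, S5 to S8, 655 of the 1122 rising genes rose. That is 58.4% of them and 35.8% of the 1828 genes that rose from S5 to S8, which are 9.67% of all genes tested. Of the 3585 falling genes, 2295 fell, which is 64.0% of them and 42.1% of the super list, where 28.8% of all genes fell. The larger a rise had been from N3 to N4, the more often the gene rose from S5 to S8, at 46.4% of genes that rose 2- to 4-fold, 79.6% of those that rose 4- to 8-fold and 124 of 128 (96.9%) at 8-fold or more. For falling genes the order was the reverse, with 67.4%, 53.8% and 32.1%. The last share, 51 of 159 genes, was near the 28.8% of all genes, and 56 of the 159 (35.2%) rose from S5 to S8. After rescaling, 169 of 174 genes that rose 8-fold or more also rose from S5 to S8. Of 100 that fell 8-fold or more, 24 fell there and 47 rose, where 16.6% and 16.4% of all genes did.

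**Figure D5:**
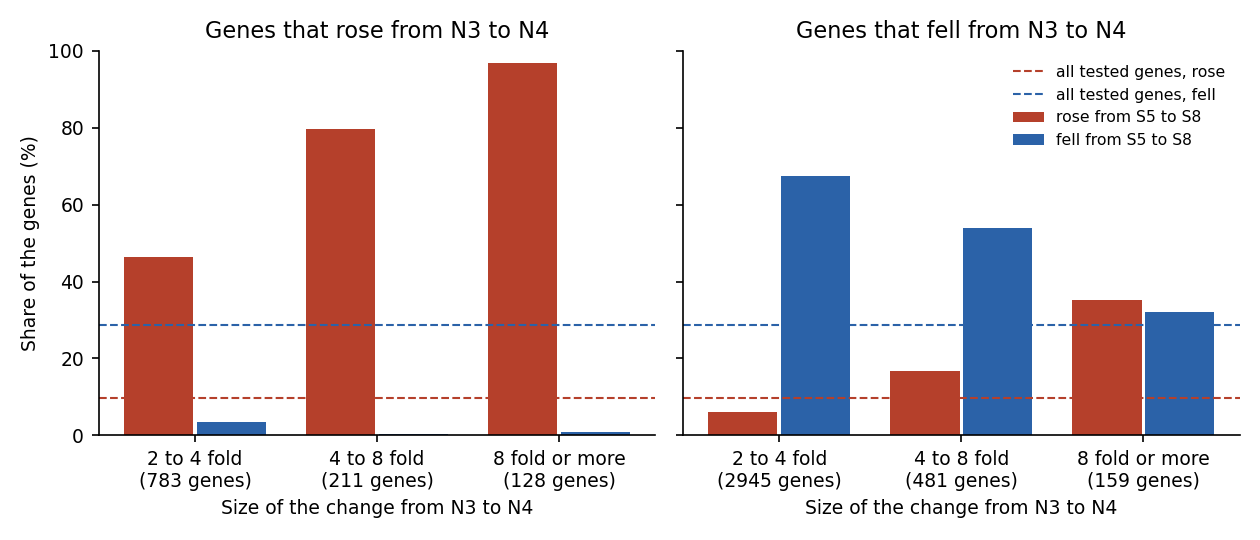
Share of genes (vertical axis, percent) that rose or fell from S5 to S8, for genes that rose (left) or fell (right) from N3 to N4, grouped by the size of that change. Dashed lines give the shares of all tested genes, 9.67% up and 28.8% down. The bars for rises climb to 96.9% on the left, and those for falls come down to 32.1% on the right.

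The step of the same name in each ovary type was compared by an interaction, N4 minus N3 against S7 minus S5. It covered 1 day in normal and 2 days in super ovaries. It called 15.7% of the genes tested, 1075 with a more positive change in normal ovaries (5.69%) and 1900 with a more negative one (10.1%). Of the 1075, 600 were called as rising in normal ovaries alone, 94 rose in both ovary types, and 150 were called as falling in super ovaries alone (302 without S7 replicate 3). Another 206 were called in neither step. Of the 1900, 1181 were called as falling in normal ovaries alone, 158 fell there but rose in super ovaries (271 without that library), and 72 fell in both. A further 147 rose in super ovaries alone (229 without that library), and 337 were called in neither step. The same libraries gave the interaction and this sorting. Without S7 replicate 3 the counts were 1310 (6.93%) and 1922 (10.2%), together 17.1%. After rescaling they were 1397 (7.39%) and 1657 (8.76%), so the margin between the 2 directions changed with the processing. All 4 named genes were among the calls. They had been chosen on N4 against N3, which is part of the interaction, so large values follow in part from the choice. Csa5G605130 had an interaction of 8.48 (SE 0.30, adjusted p 1.4e-17 by limma). With S8 in place of S7, the interaction of that gene was 0.96 (SE 0.30, adjusted p 0.0071), under the 2-fold limit, and that of Csa2G340400 was 0.07 (SE 0.17, adjusted p 0.75). That of Csa3G115050 was 1.21 (SE 0.24, adjusted p 1.1e-04) and was called. Csa5G366670 differed by -7.24 with S7 (SE 0.65, adjusted p 1.1e-09) and by -8.47 with S8 (SE 0.65, adjusted p 1.0e-10). Over all genes the S8 interaction called 2027 genes more positive (10.7%) and 1919 more negative (10.2%) in normal ovaries, 20.9% of those tested.

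A few genes passed between barely detected and expressed. In 22 genes, Csa5G605130 among them, each N3 library held at most 3 reads and each N4 library at least 1 RPM. Their median level was 0.0983 RPM in N3, 2.19 in N4 and 0.803 in N5. In super ovaries it was 0.12 RPM in S5, 0.312 in S7 and 1.12 in S8. Of the 22, 9 were called higher in S8 than in S5 and 0 lower, where 9.67% of all tested genes were higher and 28.8% lower. A gene at 0.12 RPM cannot fall 2-fold on the log2(RPM + 1) scale, so the 0 lower follows largely from that level. In 45 genes the reverse held, with at most 3 reads in each N4 library and at least 1 RPM in each N3 library. Their median was 2.19 RPM in N3 and 0.14 in N4. Of these, 21 fell from S5 to S8 and 6 rose, beside the same 28.8% and 9.67% of all genes. At 3 reads, with 1 read added to each gene, a library of these groups lists a value of 0.177 to 0.222 RPM, so a level under that was not distinguished from none.

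Called genes had a neighbouring identifier called in the same direction more often than the tested genes at large. The identifiers hold a chromosome digit and a running number, and neighbours were taken by that number among the 18812 tested genes that carry one. Of the rising genes among these, 276 of 1106 (25.0%) had a rising neighbour on either side, where 11.2% of all genes had one. For falling genes the shares were 42.0% and 34.0%. After rescaling they were 32.5% against 18.5% for rises and 31.8% against 21.1% for falls. The longest run of consecutive rising genes held 5 as deposited and 7 after rescaling, and that of falling genes held 8 under both scalings. No chance value was computed for these runs. Whether neighbours share reads as near-identical copies was not tested, and the sources used here do not say how reads with several places were counted. Across chromosome digits 1 to 7, between 5.32% and 6.47% of genes rose and between 18.5% and 19.7% fell.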

How the data were processed

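RNA-seq of pooled corollas was deposited by the authors as 1 table of RPM values for 23248 genes in 33 libraries. TopHat and HTSeq are named, per the submitters' processing notes. For versions, build and annotation nothing was given in the sources used here. Members, comparisons and rules were chosen with earlier results of these data known. Nothing says that pools came from separate plants, so p-values measure the spread between pools, which may be technical.

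Low values were whole multiples of 1 step per library, and at least 99.99% of all values in each library came out within 0.25 of a whole read. Reads were counted as steps minus 1, taking the lowest value as a gene with no read, an assumption the file does not settle. The count tests used 30 libraries, N3, N4, S5, S7 and S8 among them. N5 replicate 2, S1 replicate 2 and S4 replicate 2 were left out, since under 95% of their low values came within 0.1 of a whole read at a first estimate of the step. Reads of replicate pairs in N3 and N4 differed beyond sampling noise (chi-square over degrees of freedom 5.2 to 15.09). Intervals cover counting error only.

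The test was limma 3.58.1 (R 4.3.3) on log2(RPM + 1), with 33 libraries in 1 fit of 11 group means and a mean-variance trend, two-sided, on genes whose mean reached 1 RPM in any group. Changes have Benjamini-Hochberg adjusted p-values over all tested genes. Alternatives were pseudocounts of 0.1 and 5, no filter and one at 5 RPM, rescaling, smaller fits, no trend, edgeR 4.0.16 and DESeq2 1.42.0 on recovered reads, the replicate block, left-out replicates and other super steps.

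Named genes were the 2 largest rises and 2 largest falls among called genes at 10 RPM or more in the higher group whose libraries did not overlap. A RefSeq table of 23999 genes matched 0 identifiers, also when letter case and separators were ignored. Planned lists by function and cell type could therefore not be formed, and no sequence could be shown. Size classes, neighbours by identifier and barely detected genes were described after the data were seen.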

Additional observations from a re-analysis of the deposited data

Results flagged for a closer look

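The change from green yellow to yellow bud differed between ovary types in 2975 genes, 15.7% of those tested. The test was of the difference N4 minus N3 against S7 minus S5. Among the named genes, which were chosen on N4 against N3, the difference was 8.48 on the log2 scale for Csa5G605130 and 7.25 for Csa3G115050. Both rose from N3 to N4 and were not called from S5 to S7. The difference was -4.91 for Csa2G340400, which fell in both ovary types, and -7.24 for Csa5G366670, which fell in normal and rose in super ovaries. Without S7 replicate 3, the S7 library that stood apart, these 4 values were 8.45, 7.35, -5.03 and -7.89. With S8 in place of S7 they were 0.96, 1.21, 0.07 and -8.47, and those of Csa5G605130 and Csa2G340400 were not called. Days covered (1 and 2) and ovary type cannot be told apart in the difference with S7.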

How the results depend on the processing

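Without each N3 or N4 replicate in turn, 4559 to 4839 genes were called in N4 against N3, of which 1102 to 1133 rose and 3447 to 3734 fell. The interaction with S7 minus S5 ranged from 2858 to 3232 genes when replicates of N3, N4, S5 or S7 were left out (964 to 1310 more positive and 1859 to 1979 more negative in normal ovaries). Genes that rose in N4 against N3 and in S7 against S5 numbered 232 and ranged from 203 to 256, and those that fell in both numbered 943 and ranged from 785 to 1215. A pseudocount of 5 gave 2809 calls in N4 against N3 (2012 falls), 1883 in the interaction (649 more positive and 1234 more negative), and 153 shared rises and 358 shared falls. A pseudocount of 0.1 gave 1544 shared falls. Rescaling gave 1888 rises, 2135 falls, 408 shared rises and 445 shared falls. It also gave 1397 more positive and 1657 more negative interactions. By edgeR and DESeq2 there were 2226 and 2277 rises, 580 and 609 shared rises, and 1693 and 1683 more positive interactions. With S8 minus S5 as the super step there were 655 shared rises, 2295 shared falls and 2027 more positive interactions, and with stage means 574 and 1951 shared genes. Causes of these shifts were not tested. The 4 named genes kept their direction and their calls in N4 against N3 under the alternatives run, and in the interaction except with S8 minus S5, where Csa5G605130 (0.96) and Csa2G340400 (0.07) were not called. Stage means were run for counts of genes, not for single genes. Replicate numbers did not pair the samples: deviations from the group means correlated at 0.036, 0.114 and -0.077 between N3 and N4 libraries of equal number, and a fit with the replicate block called 4709 genes. Levels near 0.2 RPM are limited by depth.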

Other observations

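The share of genes that rose differed between classes of level. By the mean over all 33 libraries, 3.14% of 1083 tested genes under 1 RPM rose from N3 to N4, 5.62% of 5037 genes at 1 to 10 RPM, 5.81% of 10404 at 10 to 100 RPM, 8.22% of 2336 at 100 to 1000 RPM and 9 of 45 genes (20.0%) above that. Under 1 RPM falls were few as well, at 1.29%, and on the log2(RPM + 1) scale changes in both directions are understated there. Falls were near a constant share from 1 to 1000 RPM, at 18.8%, 20.8% and 19.5%. After rescaling the shares that rose were 8.93%, 9.76% and 15.1% in these 3 classes, and of the 45 genes with the most reads 0 fell, where 7 (15.6%) fell as deposited. The mean over all libraries includes N3 and N4, so the classes are not independent of the step.

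Some identifiers carry UN in place of a chromosome digit. Of 93 such genes tested, 16 rose (17.2%) and 13 fell (14.0%), where 5.93% and 19.0% of all genes did. After rescaling 17 rose and 6 fell, where 9.99% and 11.3% of all genes did.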
